A study of Mus musculus with 6 samples.

Results

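The A- and B-type lamins and the enzymes that process them were examined in 6 RNA-seq libraries of the E0771 line, breast carcinoma cells of the C57BL/6 mouse. The genes were chosen by name, as Lmna, Lmnb1, Lmnb2, Zmpste24, Icmt, Fnta, Fntb, Rce1 and Narf, and the rule uses no measured value. Of these 9 genes, 8 are among the 10520 genes with counts, and Narf was not analysed here. The 3 shControl libraries came from cells transduced with the control vector, which the study's supplement lists as an empty vector, and the 3 shLmna libraries from cells carrying an shRNA against lamin A/C. Both groups were E0771 cells in culture, selected with puromycin at 3 µg/ml after transduction and expanded, with no cloning step described. The genotype label of the knockdown libraries reads shLmna while their titles read shRNA4, so which of the study's constructs they carry cannot be told from the labels. The labels do not say that the replicates came from separate transductions or cultures, so p-values measure the spread between these libraries, which may be technical. Differences in this bulk RNA cannot separate fewer cells that use a gene from less RNA per cell.

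Lamins are intermediate filament proteins that form the meshwork under the inner nuclear membrane. Lmna encodes the A-type lamins, lamin A and lamin C, by alternative splicing and 3′ end use, while Lmnb1 and Lmnb2 encode the B-type lamins B1 and B2. Prelamin A and the B-type lamins end in a CaaX motif whose cysteine is farnesylated by farnesyltransferase, a dimer of the subunits encoded by Fnta and Fntb. The last residues are then cut off by the endoproteases Rce1 or Zmpste24, and the methyltransferase Icmt methylates the exposed cysteine. B-type lamins keep this lipid, whereas Zmpste24 cuts prelamin A once more and releases mature lamin A without it. Lamin C has no CaaX motif and passes through none of these steps, and Narf is known as a binding partner of farnesylated prelamin A. The balance of A-type to B-type lamins is known to affect how easily a nucleus deforms.

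The ends of the lamin coding sequences are printed to show which products enter the processing pathway. Each line gives the last 18 codons and the stop codon from the mouse annotation of GRCm38, 5′ to 3′, with the 4 codons of a CaaX motif in capitals.
lamin A, from Lmna: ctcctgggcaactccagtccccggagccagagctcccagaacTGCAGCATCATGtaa
lamin C, from Lmna: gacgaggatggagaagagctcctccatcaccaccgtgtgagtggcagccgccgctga
lamin B2, from Lmnb2: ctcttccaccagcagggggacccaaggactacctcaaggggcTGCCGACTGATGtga
The capitals open with a cysteine codon in lamin A and in lamin B2, and lamin C has no cysteine codon at that place. All codons printed for lamin A belong to the tail that is lost on the way to the mature protein, those after the cysteine at the CaaX cut and the rest at the last Zmpste24 cut.

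Lmna lies on the minus strand of chromosome 3 at 88480147 to 88509956 in GRCm38 (mm10). The transcript of lamin A, Lmna-201, has 12 exons and 665 codons and ends at position 88481148. The transcript of lamin C, Lmna-203, has 10 exons and 574 codons and ends at 88483205, which is 2057 bases upstream. MARS-seq reads the 3′ end of each RNA molecule, and per the authors a UMI was assigned to a gene when its read fell in the final 1000 bases of the RefSeq model or up to 100 bases past it. The lamin C end lies outside that window when it is drawn from the lamin A end, and the sources used here do not say whether it was counted from its own end. The Lmna values below are therefore counts for the gene, and lamin A and lamin C transcripts cannot be told apart in them.

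The libraries held 1846208 to 3242051 molecules, each marked by a unique molecular identifier (UMI) and counted once. Levels are given below as counts per 1000000 UMIs (CPM) after scaling by TMM factors. A molecule gives 1 UMI whatever its length, but only where its read falls in the window at the annotated end. Levels set side by side between genes therefore also depend on that annotation, which was not tested. Of the epithelial markers measured, Krt8 had 516 to 814 UMIs per library, while Epcam had 8 to 46 and Krt18 had 7 to 20. Of the mesenchymal markers measured, Vim had 10546 to 17461 UMIs, while Pdgfrb had 19 to 51, Col1a1 had 2 to 11 and Fn1 had 0 to 8. Cdh1, Krt19 and Cldn7 were not analysed here.

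In these breast carcinoma cells, 2 libraries held melanoma transcripts. The summed UMIs of Pmel, Mlana, Tyrp1, Dct, Sox10 and Mitf, 6 genes of the pigment cell lineage, came, in order of replicate, to 15, 7 and 1421 for shControl and to 2, 1647 and 5 for shLmna. Every one of the 6 markers was between 25 and 499 UMIs in shControl replicate 3 and shLmna replicate 2, and at most 8 in the other libraries. Library names in the study's supplement place B16F10 melanoma libraries on the same numbered plate as these E0771 libraries. The tests of the 8 genes, the ratios of A-type to B-type lamins and the counts of genes called are given with all 6 libraries and with the 4 that remain without this pair, where the 6 markers sum to 2 to 15 UMIs. For other quantities the value of each library, or the mean of all 6, is given, and the part of the melanoma transcripts in them was not tested.

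**Figure D1:**
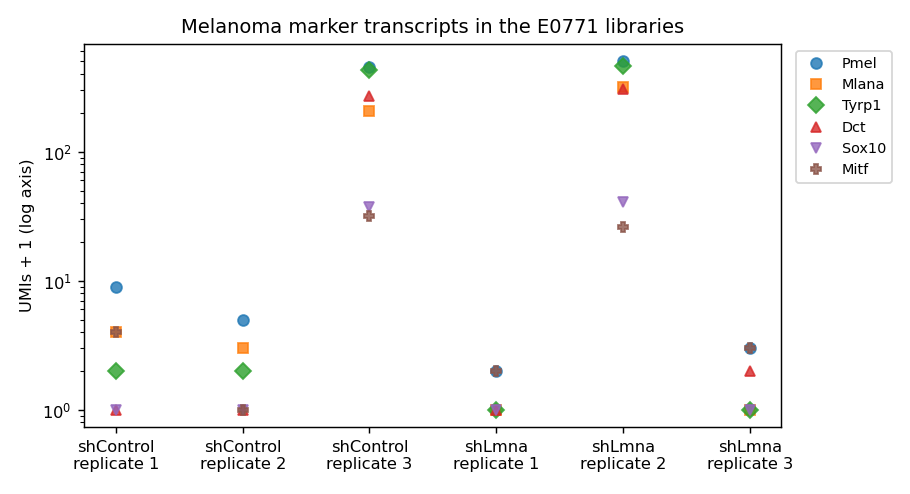
UMIs plus 1 of 6 melanoma marker genes (vertical log axis) in each of the 6 E0771 libraries, 1 symbol per gene. Markers reach 25 to 499 UMIs in shControl replicate 3 and shLmna replicate 2 and at most 8 elsewhere.

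Lmna had the highest counted level of the 8 genes in both groups, and it fell in the shLmna libraries. In order of replicate, as everywhere below, its level was 810, 874 and 936 CPM in shControl and 388, 376 and 379 CPM in shLmna. The lowest shControl library stood far above the highest shLmna library, and the shLmna libraries lay closer to each other than the controls did. The mean went from 873 ± 62.8 to 381 ± 6.34 CPM (SD, n = 3 each), which is 43.6% of the control level. The log2 fold change was -1.20 ± 0.13 (SE), with a 95% confidence interval from -1.47 to -0.92 and an adjusted p of 3.5e-05 by edgeR's quasi-likelihood test. Of 8969 genes tested, 47 had a smaller p than Lmna. The counts behind these levels were 1764 to 2794 UMIs in shControl and 713 to 1035 in shLmna. With the 4 libraries with few melanoma transcripts the log2 fold change of Lmna was -1.13 ± 0.16 (SE), with an adjusted p of 4.9e-05 in edgeR.

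Among the 8 genes, Lmna alone passed the test, 1 lower and 0 higher, beside 13.7% of all genes tested, 5.78% called lower and 7.96% called higher. Lmna alone also met the study's stricter criteria (mean normalized count above 5, absolute log2 fold change above 1), beside 5.71% of genes tested. An unadjusted p below 0.05 was reached by 3 of the 8 genes, Lmna, Zmpste24 and Rce1, beside 28.4% of genes tested. The other 7 had adjusted p-values from 0.111 to 0.622 and log2 fold changes from -0.45 to 0.34. Each of their 95% intervals lay inside a halving and a doubling (log2 of -1 to 1). The shLmna libraries all lay below the shControl libraries for 4 genes, Lmna, Lmnb1, Fntb and Rce1, beside 15.7% of genes tested, and for none did they all lie above, beside 16.8%, or 32.5% in either direction. The median log2 fold change was -0.22 over the 8 genes and 0.0033 over all genes tested. In the 4 libraries with few melanoma transcripts, 2 of the 8 genes passed, Lmna and Fnta, beside 13.2% of 8996 genes tested.

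**Figure D2:**
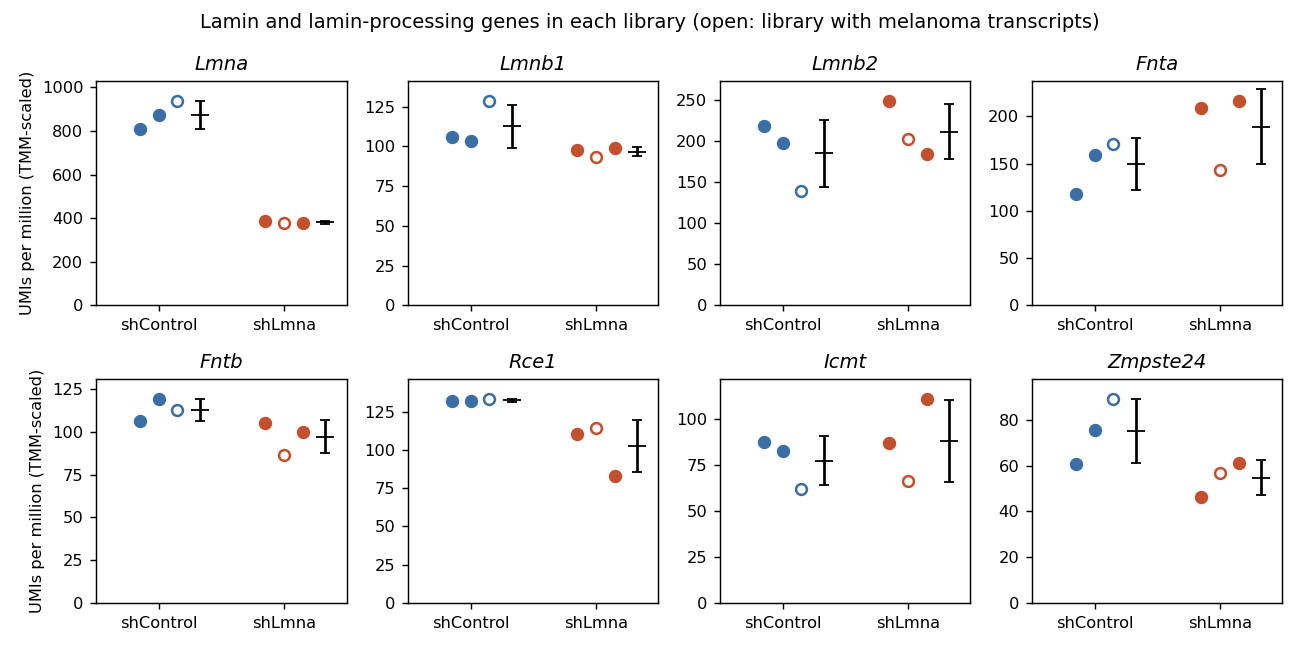
CPM of the 8 genes in each library, with shControl in blue and shLmna in red, open circles for the libraries with melanoma transcripts, and a bar for the mean ± SD (n = 3). Lmna separates widely, from 810 to 936 in shControl against 376 to 388 in shLmna, while the axes of the other genes, each starting at 0, show smaller shifts.

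The B-type lamins did not pass the test. Lmnb1 (chromosome 18) was at 106, 103 and 128 CPM in shControl and at 97.8, 93.6 and 98.9 in shLmna. Every shLmna library was below every shControl library, but by little, and the highest control was replicate 3, which holds melanoma transcripts. The log2 fold change of Lmnb1 was -0.22 ± 0.15 (SE), with a 95% interval from -0.53 to 0.099 and an adjusted p of 0.366 in edgeR. With the 4 other libraries it was -0.090, with an interval from -0.45 to 0.27.

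Lmnb2 (chromosome 10, minus strand, 80901203 to 80918245) was at 218, 198 and 140 CPM in shControl and at 249, 203 and 185 in shLmna. The groups overlapped, and the lowest value was that of shControl replicate 3, which had the highest value of Lmnb1. For Lmnb2 the log2 fold change was 0.19 ± 0.18 (SE), with a 95% interval from -0.18 to 0.57 and an adjusted p of 0.516 in edgeR. In the 4 other libraries it was 0.066, with an interval from -0.30 to 0.43. Summed, the B-type lamins were at 298 ± 28.6 CPM in shControl and 309 ± 33.4 in shLmna (SD, n = 3 each), and the groups overlapped (exact permutation test, two-sided, p = 0.7).

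The balance of A-type to B-type lamins was lower in the shLmna libraries. Lmna UMIs over the sum of Lmnb1 and Lmnb2 UMIs came to 2.50, 2.90 and 3.49 in shControl and to 1.12, 1.27 and 1.34 in shLmna. Thus counted Lmna UMIs outnumbered those of Lmnb1 and Lmnb2 together in every library, and the highest shLmna ratio was below the lowest control ratio. The mean ratio went from 2.96 ± 0.50 to 1.24 ± 0.11 (SD, n = 3 each), and the mean of the log2 ratios differed by -1.24. A two-sided exact permutation test gave p = 0.1, the smallest that 3 libraries against 3 allow, and 0.12 after Benjamini-Hochberg adjustment over 6 ratios. A ratio within a library does not depend on how libraries are scaled.

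Against Lmnb1 alone, the ratio of Lmna was 7.62, 8.44 and 7.29 in shControl and 3.97, 4.01 and 3.83 in shLmna, a log2 difference of -0.98, or -1.04 in the 4 libraries without that pair. Against Lmnb2 alone it was 3.71, 4.41 and 6.71 in shControl and 1.56, 1.85 and 2.05 in shLmna, a log2 difference of -1.40, or -1.18 in those 4. The high value of 6.71 was in shControl replicate 3, where Lmnb2 was lowest. For each of these the groups did not overlap and the exact permutation p was 0.1, whereas the ratio of Lmnb1 to Lmnb2 overlapped between groups (exact permutation p = 0.3). In the 4 libraries with few melanoma transcripts the ratio of A-type to B-type lamins had means of 2.70 and 1.23, a log2 difference of -1.14, and no p below 0.333 was possible with 2 against 2.

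All lamin transcripts together came to 1171 ± 34.6 CPM in shControl and to 690 ± 39.2 in shLmna (SD, n = 3 each), which is 58.9% of the control (exact permutation p = 0.1). Lmna made up 71.4%, 74.3% and 77.7% of lamin UMIs in the shControl libraries and 52.8%, 55.9% and 57.2% in the shLmna libraries. The lamin pool was thus smaller in every shLmna library, and its A-type share was lower by more than the spread within either group.

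**Figure D3:**
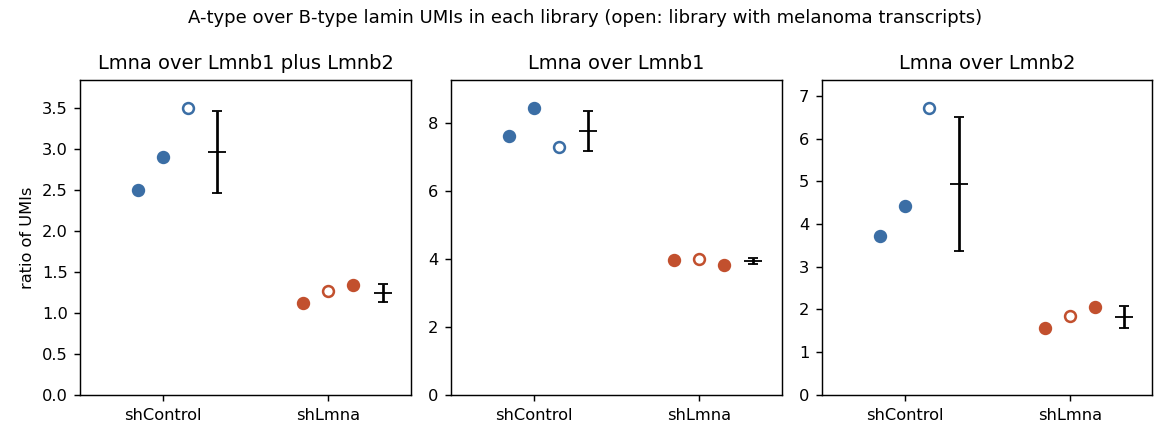
Ratio of Lmna UMIs to the UMIs of both B-type lamins, of Lmnb1 and of Lmnb2 in each library, with open circles for the libraries with melanoma transcripts and a bar for the mean ± SD (n = 3). In each panel every shLmna library lies below every shControl library, and the shControl spread is widest for Lmnb2, from 3.71 to 6.71.

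The first enzyme of the pathway, farnesyltransferase, is built from the alpha subunit Fnta, shared with an enzyme that attaches geranylgeranyl groups, and the beta subunit Fntb, which holds the catalytic site. Fnta (chromosome 8, minus strand, 25998722 to 26015650) was at 118, 159 and 171 CPM in shControl and at 209, 143 and 216 in shLmna. The shLmna replicates 1 and 3 were above every control, while shLmna replicate 2, which holds melanoma transcripts, was within the control range. With all libraries the log2 fold change of Fnta was 0.34 ± 0.18 (SE), with a 95% interval from -0.050 to 0.73 and an adjusted p of 0.244 in edgeR. In the 4 libraries with few melanoma transcripts Fnta rose, from a mean of 139 to 212 CPM, with a log2 fold change of 0.61 ± 0.18 (SE), a 95% interval from 0.24 to 0.98 and an adjusted p of 0.0245 in edgeR. The call thus depended on a pair of libraries that was chosen for removal after their values were seen. With single libraries left out the log2 fold change ran from 0.18, without shControl replicate 1, to 0.51, without shLmna replicate 2.

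Fntb (chromosome 12, plus strand, 76765589 to 76921412) was at 106, 119 and 112 CPM in shControl and at 105, 86.6 and 99.97 in shLmna. The groups did not overlap, but shControl replicate 1 and shLmna replicate 1 were nearly level. Fntb had a log2 fold change of -0.21 ± 0.15 (SE), with a 95% interval from -0.53 to 0.097 and an adjusted p of 0.364 in edgeR, and it was -0.14 in the 4 other libraries. Within libraries, the ratio of Fnta to Fntb UMIs was 1.11, 1.34 and 1.52 in shControl and 1.99, 1.65 and 2.16 in shLmna. This ratio was higher in every shLmna library, with means of 1.32 ± 0.20 and 1.93 ± 0.26 (SD, n = 3 each) and an exact permutation p of 0.1, the smallest possible.

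Rce1, the endoprotease of the endoplasmic reticulum that cuts the last residues of most CaaX proteins, had the least spread among controls. Its level was 132, 132 and 133 CPM in shControl and 110, 114 and 83.0 in shLmna. All shLmna libraries were lower, replicate 3 most of all. The log2 fold change of Rce1 (chromosome 19, minus strand, 4622591 to 4625641) was -0.36 ± 0.15 (SE), with a 95% interval from -0.69 to -0.035 and an adjusted p of 0.133 in edgeR. In the 4 other libraries it was -0.44, with an adjusted p of 0.120. On the authors' log2 values corrected with ComBat, tested with limma, Rce1 passed with a difference of -0.23 and an adjusted p of 0.0135. That fit had no term for the batches already removed, and it called 3491 genes against 1232 in the main fit. The size of the difference cannot be set beside edgeR's, as 0 UMIs of Sox10 stand at 5.16 to 5.53 on the ComBat values. With the replicate number as a block in edgeR, Rce1 did not pass (adjusted p of 0.109).

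Icmt, the methyltransferase that caps the farnesylated cysteine, was at 87.5, 82.2 and 62.1 CPM in shControl and at 86.6, 66.1 and 111 in shLmna. The groups overlapped, and the lowest library of each group was the one with melanoma transcripts. Icmt had a log2 fold change of 0.17 ± 0.20 (SE), with a 95% interval from -0.25 to 0.58 and an adjusted p of 0.622 in edgeR. In the 4 other libraries it was 0.21, and without shLmna replicate 3 alone it was -0.022. The counted end of Icmt (chromosome 4, plus strand, 152297227 to 152307121) overlaps Rnf207 on the opposite strand, and without a statement on strand in the counting their reads cannot be told apart.

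Zmpste24, the metalloprotease that makes the last cut of prelamin A, had the lowest mean of the 8 transcripts in both groups. It was at 60.8, 75.7 and 89.1 CPM in shControl and at 46.5, 56.9 and 61.2 in shLmna. The shLmna replicates 1 and 2 were below every control, and replicate 3 was just above the lowest control. The log2 fold change of Zmpste24 (chromosome 4, minus strand, 121059237 to 121098241) was -0.45 ± 0.18 (SE), with a 95% interval from -0.84 to -0.069 and an adjusted p of 0.111 in edgeR. It was -0.36 in the 4 libraries with few melanoma transcripts, with an adjusted p of 0.281.

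Whether Zmpste24 passed depended on the processing. The last 1000 bases of its transcript are 39.8% G or C, the lowest of the 8 genes, which ranged up to 54.7% in Fntb, beside a median of 47.0% over all genes. With a correction of each library for GC content the log2 fold change of Zmpste24 was -0.56, with an adjusted p of 0.0194 in edgeR. On the ComBat values the difference was -0.25, on another scale than edgeR's, with an adjusted p of 0.00493 in limma. That fit had no term for the batches already removed. With the replicate number as a block in edgeR, Zmpste24 did not pass (adjusted p of 0.0649). Per Lmna UMI, Zmpste24 had 0.0750, 0.0866 and 0.0952 UMIs in shControl and 0.120, 0.152 and 0.161 in shLmna. This ratio was higher in every shLmna library (exact permutation p = 0.1). Its denominator is the target of the shRNA, which fell by more (log2 fold change of -1.20) than Zmpste24 did (-0.45). The higher ratio is therefore not a gain of Zmpste24. The Lmna counts may also include lamin C, which Zmpste24 does not cut.

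**Figure D4:**
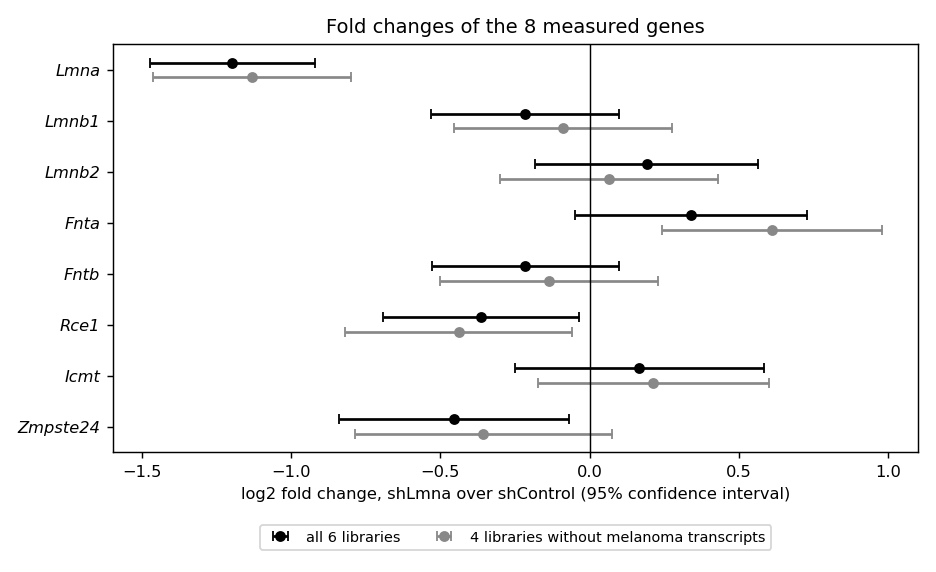
Log2 fold change of each gene, shLmna over shControl, with its 95% confidence interval, from edgeR with all 6 libraries (black) and with the 4 libraries with few melanoma transcripts (grey). Lmna lies near -1.2 and all others within -1 to 1, and the grey interval of Fnta, from 0.24 to 0.98, lies above 0.

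In order of level, the shControl libraries ran from Lmna at 873 CPM through Lmnb2 at 185, Fnta at 149, Rce1 at 132, Lmnb1 at 113, Fntb at 113 and Icmt at 77.3 to Zmpste24 at 75.2. The ranges of neighbours overlapped for Lmnb2 and Fnta, for Fnta and Rce1, for Lmnb1 and Fntb, and for Icmt and Zmpste24. In shLmna the order was Lmna at 381, Lmnb2 at 212, Fnta at 189, Rce1 at 102, Fntb at 97.2, Lmnb1 at 96.8, Icmt at 87.8 and Zmpste24 at 54.8. There the ranges of neighbours did not overlap between Lmna and Lmnb2, Fnta and Rce1, or Icmt and Zmpste24. Lmna stayed first after the knockdown, with its lowest library at 376 CPM and the highest of Lmnb2 at 249.

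The genes whose levels followed Lmna most closely over the 6 libraries were Procr, Csrnp1, Wdr74, Sumo3 and Myc, with Pearson's r of log2 CPM from 0.991 to 0.995 among 5842 genes with a mean count of at least 50. The 6 libraries fall into 2 groups that differ in Lmna, so a high r mostly ranks genes by how cleanly they separate the groups and not by size. Procr, the endothelial protein C receptor, fell with a log2 fold change of -1.77 and Myc, a growth-promoting transcription factor, with one of -1.10 (adjusted p of 3.8e-06 and 7.0e-05 in edgeR). Sumo3, a small ubiquitin-like modifier, had a log2 fold change of -0.10 and did not pass (adjusted p of 0.640). For Lmnb1 the closest were Timm9, Pxdc1, Dkc1, Fip1l1 and Pam16, with r from 0.956 to 0.980, and none of these passed the test between groups.

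The other genes of the pathway were taken from 5 lists of 66 genes, of which 53 were tested. Of these 53, 3 were lower and 3 higher in shLmna and 47 did not pass, which is 11.3% called beside 13.7% of all genes tested. Their median log2 fold change was 0.076. Ppp1cb, counted among the 3 higher, entered the test only through the shLmna libraries, where it is high, so its call is a description. Without the pair of libraries with melanoma transcripts the same 6 passed together with Nras and Ptp4a2. When single libraries were left out the number passing ranged from 3 to 8, and it was 3 without shControl replicate 2 and 3 without shLmna replicate 3. Rhob and Tmpo passed with any 1 library left out, as did Ppp1cb with the limit given above. Rabggta, Rnd1 and Akap8 each missed the threshold at least once. With the GC correction 10 passed, where 1499 of all genes passed against 1232 in the main fit.

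Of the isoprenoid supply, the mevalonate pathway that makes the farnesyl group, 0 of 7 genes tested passed, beside 13.7% of all genes tested. The median log2 fold change of these 7 was -0.16. Fdps, which makes farnesyl diphosphate, was at 322 ± 48.6 CPM in shControl and 350 ± 11.4 in shLmna (SD, n = 3 each). The related prenyltransferase subunits and escorts had 1 called lower and 0 called higher of 5 tested, beside 13.7% of all genes tested. Their median of -0.59 is the value of Chml, which had 8 to 16 UMIs and did not pass. Rabggtb was at 0.0062 and Pggt1b at 0.57, and neither passed. The gene called lower was Rabggta, the alpha subunit of the enzyme that puts geranylgeranyl groups on Rab proteins. It was at 70.3 ± 6.55 and 43.3 ± 1.16 CPM (log2 fold change of -0.70, adjusted p of 0.0094 in edgeR).

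Other proteins that carry a farnesyl group had 2 lower and 0 higher of 14 tested, with a median log2 fold change of 0.070. That is 14.3% called, beside 13.7% of all genes tested, with 5.78% lower and 7.96% higher. Rhob, a small GTPase of endosomes and actin, was at 663, 729 and 652 CPM in shControl and at 218, 198 and 235 in shLmna, 682 ± 41.9 against 217 ± 18.5 (SD, n = 3 each). All shLmna libraries lay far below the controls, and the log2 fold change of Rhob was -1.66 ± 0.13 (SE). Rnd1, an atypical small GTPase that loosens adhesion, fell from 15.8 ± 2.76 to 6.91 ± 1.86 CPM (log2 fold change of -1.16, adjusted p of 0.0147 in edgeR).

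Enzymes that phosphorylate, dephosphorylate or cleave lamins had 0 lower and 2 higher of 13 tested, with a median log2 fold change of 0.17. That is 15.4% called, beside 13.7% of all genes tested, with 5.78% lower and 7.96% higher. Ppp1cb, a catalytic subunit of protein phosphatase 1, had 1, 5 and 4 UMIs in shControl and 45, 51 and 37 in shLmna. It entered the test only through the shLmna libraries, where it is high, so its call, though counted here, is given as a description. Its level was 1.36 ± 0.88 CPM in shControl and 18.4 ± 1.43 in shLmna (SD, n = 3 each). Ppp1ca, another catalytic subunit of the same phosphatase with far more UMIs counted, was at 874 ± 139 and 788 ± 118 and did not pass. Akap8, a nuclear anchor of protein kinase A, rose from 16.9 ± 8.24 to 34.0 ± 8.55 (log2 fold change of 1.05, adjusted p of 0.0326).

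Of the lamin-binding partners, 0 were lower and 1 was higher of 14 tested, with a median log2 fold change of 0.17. That is 7.14% called, beside 13.7% of all genes tested, with 5.78% lower and 7.96% higher. The higher gene was Tmpo, which encodes the LAP2 proteins that tether chromatin and lamins. Tmpo was at 17.3, 20.6 and 26.5 CPM in shControl and at 104, 127 and 125 in shLmna, so that every shLmna library held several times the highest control. Its log2 fold change was 2.48 ± 0.19 (SE), with an adjusted p of 2.5e-06 in edgeR. Emd, which encodes the LEM-domain protein emerin, was at 676 ± 184 and 551 ± 131 CPM and did not pass, and the lamin B receptor gene Lbr was at 30.6 ± 6.84 and 42.0 ± 4.64 and did not pass either.

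**Figure D5:**
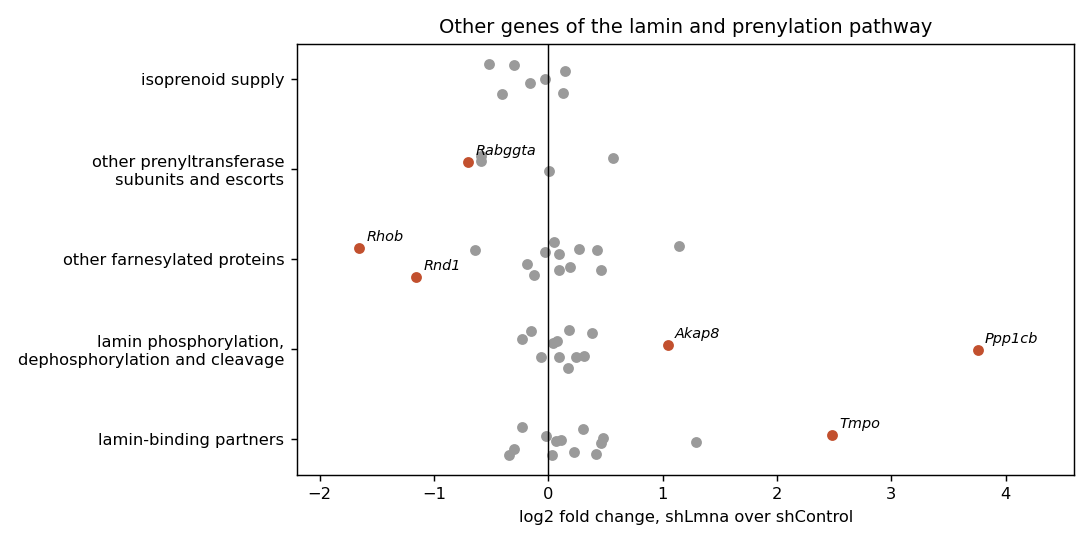
Log2 fold change, shLmna over shControl, of the 53 tested genes of the 5 pathway lists, 1 point per gene and 1 row per list, with genes that passed edgeR's test in red and named. Of the 53 points, 3 red ones lie below 0 and 3 above, and Ppp1cb and Tmpo lie farthest to the right. Ppp1cb entered the test only through the shLmna libraries, where it is high.

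Of the leukocyte and mesenchymal markers tested, Lyz2 and Pdgfrb passed with all libraries, both at low levels. The myeloid gene Lyz2 had 10, 23 and 13 UMIs in shControl and 42, 35 and 29 in shLmna (adjusted p of 0.011 in edgeR). With single libraries left out its adjusted p in edgeR reached up to 0.052, above the threshold. Coro1a did not pass. These 2 of 4 leukocyte markers summed to 14.5 to 16.6 CPM in shControl and 26.4 to 29.6 in shLmna, while Ptprc and Cd52 were not analysed here. The pericyte and fibroblast gene Pdgfrb rose from 11.0 ± 1.55 to 18.7 ± 0.66 CPM (adjusted p of 0.0457), and missed the threshold without the pair of libraries with melanoma transcripts (adjusted p of 0.106). Epcam, at 13.7 ± 0.63 CPM in shControl and 7.08 ± 4.07 in shLmna, did not pass with all libraries but did without that pair (log2 fold change of -1.51, adjusted p of 0.0083). Vim, Krt8 and Krt18 did not pass with all libraries, and of the endothelial markers Pecam1 had 2 to 7 UMIs per library. The part of these markers in the values above was not tested.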

How the data were processed

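RNA of E0771 cells was sequenced by MARS-seq in 3 shControl and 3 shLmna libraries. The authors trimmed reads with Cutadapt, mapped them to mm10 with STAR 2.4.2a, and deposited whole-number UMI counts, not normalized, for 10520 genes (the maximum over libraries is never under 6). Log2 values that the authors normalized and corrected with ComBat were also deposited and served as an alternative. The deposited DESeq2 comparison (fold changes, p-values) was not used.

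Groups were compared with edgeR 4.0.16 under R 4.3.3 (filterByExpr, minimum count 10, TMM factors, quasi-likelihood test, Benjamini-Hochberg adjustment over all 8969 genes tested). A gene was called at an adjusted p below 0.05. Lamin ratios were compared by exact permutation tests over libraries, in Python 3.11.15 with scipy 1.17.1. DESeq2 1.42.0, limma 3.58.1 (voom), other scalings, no filter, thinned counts, a GC correction, the ComBat values and leaving out libraries were alternatives. Scripts were tested on simulated data. Positions and sequences came from GENCODE M21 (GRCm38).

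The shLmna and shControl libraries took separate, adjoining positions of one plate, so plate position and group cannot be told apart. Replicates differed by more than counting noise (chi-square per degree of freedom of 5.11 to 8.28). Named were all members with counts, called genes of the pathway lists and, outside this rule, some uncalled genes chosen for contrast after their values were seen. Some items are not reported here. The members and lists were chosen with earlier results of these data known, although the rule for the members names genes and uses no measured value.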

Additional observations from a re-analysis of the deposited data

How the results depend on the processing

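Of the 8 genes, 1 passed with all libraries and with each single library left out (1 to 1), 2 with the GC correction (Lmna and Zmpste24), 2 with the GC correction and replicate block, 3 on the ComBat values (Lmna, Rce1 and Zmpste24) and 2 without both libraries that hold melanoma transcripts. Of 17 alternatives, those fitted to counts gave a log2 fold change of Lmna from -1.26 to -1.13. Their adjusted p-values ran from 1.5e-16 in DESeq2 to 0.0014 in edgeR. On the ComBat values the difference was -0.87, which is on another scale, where 0 UMIs of Sox10 stand at 5.16 to 5.53. Icmt turned to -0.022 without shLmna replicate 3 and was between -0.022 and 0.34 whichever library was left out. The other pathway genes called numbered 6 of 53 tested, or 10 of 53 with the GC correction and 17 of 59 on the ComBat values. With single libraries left out they numbered 3 to 8, of 53 to 56 tested. Over all genes the calls also rose, from 1232 to 1499 with the GC correction and 3491 on the ComBat values. The rises among the 8 genes and the pathway genes came with that wider rise. The log2 difference of the A-type to B-type ratio ran from -1.36 to -1.12 when a library was left out. Of all genes tested, 1232 were called, against 1010 by DESeq2, 1499 with the GC correction, 1396 with the GC correction and replicate block, 3491 on the ComBat values and 540 to 1580 with a library left out. The causes were not tested.

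For libraries that share a number, the correlation between their distances to the group mean was 0.35, -0.11 and 0.0052, and the main test did not pair them. The part of the melanoma transcripts in these correlations was not tested. Sox10, where it had 0 UMIs, had a ComBat value of 5.53 in both libraries numbered 1. It was 5.19 in shControl replicate 2 and 5.16 in shLmna replicate 3, so the batches that the authors corrected may follow the numbers. With the replicate block, 1 of the 8 genes was called, 7 pathway genes and 1350 genes in all, and the ratio difference was -1.24. With 3 libraries a group, the standard errors of the 7 genes that did not pass were 0.15 to 0.20 on the log2 scale, which limits the changes that could be seen.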
